A study of Saccharomyces cerevisiae with 6 samples.

Results

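The genes described here encode the nuclear subunits of the respiratory chain and of the mitochondrial ATP synthase of the budding yeast Saccharomyces cerevisiae. They were chosen by symbol from a list of 39: 3 NADH dehydrogenases, 4 subunits of complex II, 9 of complex III, 8 of complex IV, 12 of the ATP synthase, the 2 isoforms of cytochrome c and the ATP synthase inhibitor INH1. All 39 have 1 probe set each among the 5449 genes measured, and 38 of them passed the filter on dim genes and were tested among 4907. NDE2, the remaining gene, lay below the filter. COR1, ATP1 and ATP3 lie on chromosome II and the other 36 on other chromosomes.

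Electrons from NADH and from succinate enter the yeast chain through single-polypeptide NADH dehydrogenases and through complex II, pass by ubiquinone to complex III, and reach oxygen through cytochrome c and complex IV. Yeast has no proton-pumping complex I. The proton gradient built by complexes III and IV drives the ATP synthase, a membrane sector joined by stalks to a catalytic head. Each complex needs its subunits in fixed proportions, and several of the central subunits are encoded in mitochondrial DNA. In glucose medium yeast ferments, and many respiratory genes are repressed.

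RNA came from log-phase cultures of 3 strains, each with 2 arrays from separate experiments. The wild type is the laboratory strain BY4741, a haploid of mating type a with auxotrophic markers, and the mutants carry delta eos1 or delta izh2 in the same background. EOS1 and IZH2 both encode membrane proteins, and zinc homeostasis is the subject named in the series' title. All cultures were shaken at 150 rpm in YPD, a rich glucose medium, at 30 degrees Celsius and were harvested at an optical density of 1.0. The labels do not say how the deletions were made or whether each mutant was a single clone, and the p-values measure the spread between arrays.

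Values are probe set signals on a linear scale, one for each gene and array. Signals of different genes come from different probes and are not compared with each other as levels. The deletions were visible: EOS1 had a signal of 0.421 and 2.70 on the arrays of its own deletion against 694 and 692 in wild type, and IZH2 had 3.46 and 1.12 in its own deletion against 3543 and 2390. The arrays differed in overall brightness, with median signals of the tested genes between 554 and 792, highest on the first delta eos1 array. The median log2 fold change of all tested genes was 0.21 for delta eos1 and -0.11 for delta izh2, each against the wild type, and gene changes are read against these shifts. Genes of chromosome II stood higher in delta eos1 as a group: the median log2 fold change of the 349 that are not described here was 1.03, against 0.19 for the 4555 genes of other chromosomes. The markers of a cells also differed there, with a summed signal over 5 genes of 5427 to 6617 in delta eos1 and 14147 to 17531 in the other strains. For 4 markers of alpha cells the sum was 541 to 629 in delta eos1 and 310 to 356 elsewhere. SAG1 gave 450 and 386 in delta eos1 against 204 to 268 elsewhere, and STE3 144 and 121 against 38.3 to 77.1. The pheromone genes MF(ALPHA)1 and MF(ALPHA)2 stayed between 0.908 and 13.3 and between 18.3 and 34.4. The part of these marker changes in the results below was not tested.

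In delta eos1 3 of the 38 tested genes rose against the wild type and 0 fell, at an adjusted p under 0.05 (limma). They were COR1 and ATP3, both on chromosome II, and INH1 on chromosome IV. Over all tested genes 6.4% rose and 0.713% fell, so the share of 7.89% among the respiratory genes lay near the background. On chromosome II 58.8% of all tested genes rose, and 2 of the 3 respiratory genes there did. Elsewhere in the genome 2.35% rose, and 1 of 35 respiratory genes did. The median log2 fold change of the 38 genes was 0.33, or 0.12 above the median of all tested genes, and it was 0.25 for the 35 outside chromosome II. Both delta eos1 arrays lay above both wild-type arrays for 13 of the 38 genes, against 41.9% of all tested genes, and both lay below for 0, against 8.84%. At an unadjusted p under 0.05 there were 11 genes higher and 0 lower, against 19.4% and 2.43% of all tested genes. After median centring of the arrays COR1 and ATP3 passed and 0 genes were lower, against 4.22% and 2.24%. A change in some cells of a culture cannot be told apart here from a change in every cell. The calls depended on the first delta eos1 array: without it 0 of the 38 passed, and without the second 4 passed.

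**Figure D1:**
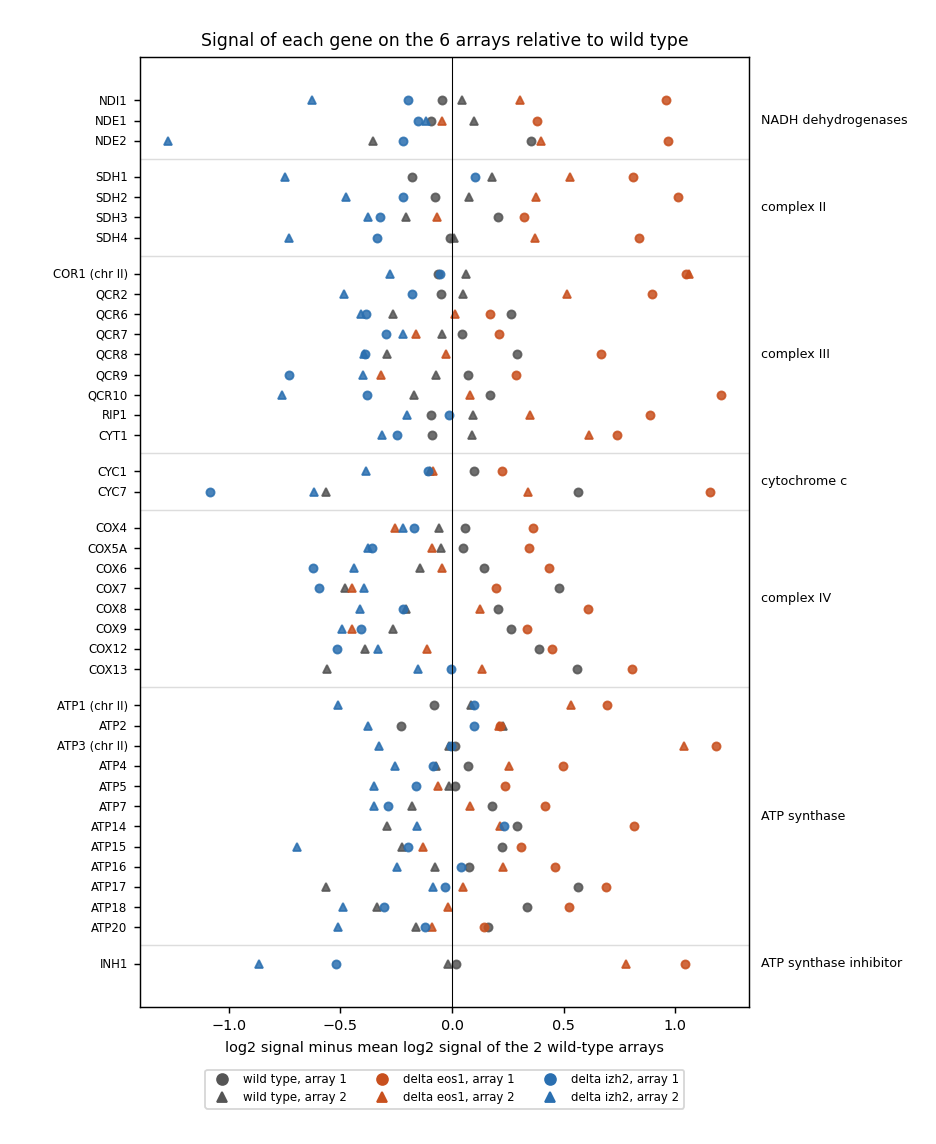
Signal of the 39 genes on each of the 6 arrays, as the log2 difference from the mean of the 2 wild-type arrays, grouped by complex. Circles are first arrays, triangles second arrays, and colours are strains. COR1, ATP3 and INH1 show both delta eos1 points well to the right of both wild-type points, while for the 8 complex IV genes the delta eos1 points overlap the wild-type points.

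COR1 (YBL045C) encodes a core protein of complex III. Its signal was 1793 and 1960 in wild type, 3873 and 3911 in delta eos1, and 1805 and 1547 in delta izh2. The delta eos1 arrays lay closer together than the wild-type arrays and above them, while delta izh2 overlapped the wild type. COR1 rose 2.08-fold in delta eos1 (log2 fold change 1.05 with a standard error of 0.21, limma adjusted p = 0.014). Without the first delta eos1 array the log2 fold change was 1.06 and the adjusted p was 0.063.

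ATP3 (YBR039W) encodes the gamma subunit, the central stalk that turns inside the catalytic head. It gave 2521 and 2473 in wild type, 5670 and 5125 in delta eos1, and 2492 and 1991 in delta izh2. Delta eos1 stood clear of both other strains. ATP3 rose 2.16-fold (log2 fold change 1.11, standard error 0.20, limma adjusted p = 0.0085), the smallest p among the 38 genes. This call too was lost without the first delta eos1 array, with an adjusted p of 0.052 and a log2 fold change of 1.04.

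ATP1 (YBL099W) encodes the alpha subunit of the head. Signals were 4790 and 5374 in wild type, 8218 and 7336 in delta eos1, and 5438 and 3563 in delta izh2. Delta eos1 again lay above the wild type without overlap, but the log2 fold change of 0.61 (standard error 0.20) did not pass (limma adjusted p = 0.10). Its 95% interval ran from 0.17 to 1.06. That range holds both the median of the 349 other chromosome II genes (1.03) and that of genes of other chromosomes (0.19). Among the 352 tested genes of chromosome II, 18.5% had a lower log2 fold change than ATP1, against 52.0% for COR1 and 57.7% for ATP3.

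The chromosome II genes were then set against the subunits they assemble with. A difference of changes within an array does not depend on that array's overall brightness. It does not take gene length into account, and COR1, ATP1 and ATP3 are 1374, 1638 and 936 bases long. In delta eos1 the longer partners of COR1, QCR2, CYT1 and RIP1, had log2 fold changes of 0.62 to 0.70. QCR6 to QCR10, all under 600 bases, had -0.02 to 0.64. The longer ATP synthase partners ATP2, ATP4 and ATP5 had 0.21, 0.38 and 0.09. The part of length in these differences was not tested. In the fit COR1 exceeded the median of its 8 complex III partners by 0.58 on the log2 scale, and 0 of the 8 had a higher log2 fold change. By array, the difference from the partners, relative to the wild-type mean, was 0.34 and 1.01 in delta eos1, 0.28 and 0.12 in delta izh2 and -0.12 and 0.12 in wild type. The first delta eos1 array thus lay close to a delta izh2 array in this measure, and QCR10 was the 1 partner with a larger change than COR1 on it.

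ATP3 exceeded the median of the other 11 ATP synthase subunits by 0.86, or 1.81-fold, with 0.72 and 0.96 on the delta eos1 arrays. The wild-type arrays gave -0.15 and 0.15 and the delta izh2 arrays 0.08 and 0.02, so delta eos1 stood apart from all 4. ATP1 exceeded its 11 partners by 0.36, with 0.23 and 0.45 on the delta eos1 arrays, against -0.25 and 0.25 in wild type and 0.18 and -0.16 in delta izh2. Here the first delta eos1 array lay below the higher wild-type array. ATP3 was the 1 partner with a higher log2 fold change than ATP1. Against the 10 partners outside chromosome II, a choice added after seeing the data, delta eos1 gave 0.26 and 0.47 and the wild type -0.25 and 0.25, which narrowly do not overlap. The difference of 0.36 for ATP1 became 0.10 when the first wild-type array was left out, 0.62 when the second was, and 0.23 on dropping the second delta eos1 array. The same difference for the 349 other chromosome II genes against genes of other chromosomes was 0.85 and 0.84 on the delta eos1 arrays and -0.02 and -0.01 on those of delta izh2. The differences of single genes from their partners were not tested, since the genes were chosen with earlier results known.

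**Figure D2:**
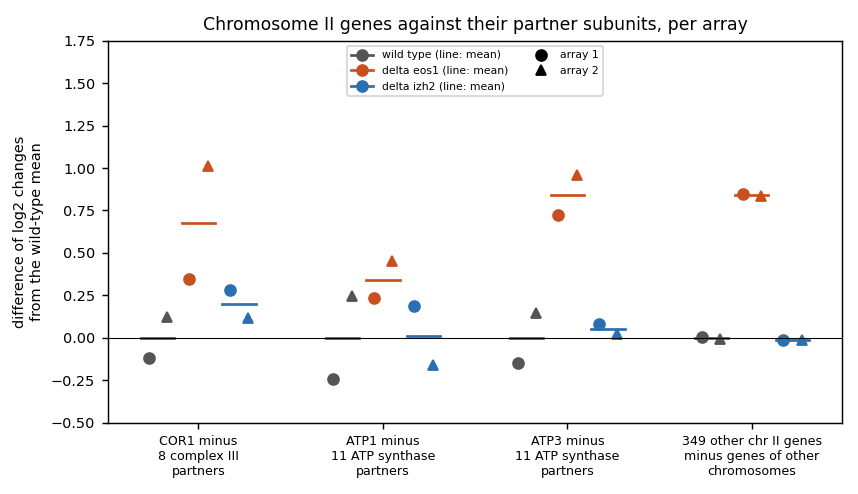
Difference between the log2 change of COR1, ATP1 or ATP3 and the median log2 change of its partner subunits on each array, with the strain mean as a line. The right-hand column gives the same for the median of 349 other chromosome II genes against genes of other chromosomes. In delta eos1 ATP3 lies at 0.72 and 0.96, near the 0.85 and 0.84 of the chromosome, and ATP1 at 0.23 and 0.45.

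The catalytic head holds alternating alpha and beta subunits, so ATP2, the beta subunit on chromosome X, is the direct counterpart of ATP1. Its signal was 4024 and 5509 in wild type, 5461 and 5447 in delta eos1, and 5042 and 3632 in delta izh2. The wild-type arrays spanned nearly the whole range of the other strains. The log2 fold change of ATP2 in delta eos1 was 0.21 (adjusted p = 0.60). ATP16, the delta subunit, had 0.34 and ATP15, the epsilon subunit, 0.09, and neither passed. QCR2, the other core protein of complex III and the counterpart of COR1, lies on chromosome XVI. It gave 904 and 970 in wild type, 1743 and 1337 in delta eos1, and 827 and 669 in delta izh2, so that the strains did not overlap. Its log2 fold change of 0.70 in delta eos1 did not pass (limma adjusted p = 0.12).

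At the entry to the chain, NDI1, the NADH dehydrogenase that faces the matrix, gave 305 and 325 in wild type, 612 and 389 in delta eos1, and 275 and 204 in delta izh2 (delta eos1 against wild type log2 fold change 0.63, adjusted p = 0.19). The groups did not overlap, but the delta eos1 arrays differed from each other by more than the second of them differed from the wild type. NDE1, one of the enzymes that oxidise cytosolic NADH, had a log2 fold change of 0.17. NDE2, its paralogue, had signals of 42.5 and 26.1 in wild type, 65.1 and 43.9 in delta eos1, and 28.6 and 13.8 in delta izh2. All 6 lay above the 95th percentile of the probe sets for genes of another species on the same array, which was 8.67 to 15.2. With the filter set from those probe sets, a choice made after seeing the data, its log2 fold change was 0.68 in delta eos1 (adjusted p = 0.43).

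Of complex II, which joins succinate oxidation to the chain, 0 of 4 subunits passed in delta eos1. SDH1, the flavoprotein, had a log2 fold change of 0.67, SDH2, the iron-sulfur protein, 0.69 and SDH4, a membrane anchor, 0.61, with adjusted p of 0.16 to 0.22. SDH2 gave 965 and 1074 in wild type, 2051 and 1323 in delta eos1, and 873 and 732 in delta izh2. SDH4 gave 1423 and 1445 in wild type, 2564 and 1856 in delta eos1, and 1136 and 864 in delta izh2. In SDH1, SDH2 and SDH4 the delta eos1 arrays lay above the wild-type arrays without overlap. SDH3, the other anchor, had 0.13. The median of the complex stood 0.42 above that of all tested genes.

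Complex III was divided in the same way. Beside COR1, its subunits CYT1 (cytochrome c1), RIP1 (the Rieske iron-sulfur protein), QCR2 and QCR10 had log2 fold changes of 0.68, 0.62, 0.70 and 0.64, and 0 of these 4 passed. CYT1 came closest, with signals of 601 and 679 in wild type, 1066 and 977 in delta eos1, and 538 and 514 in delta izh2 (limma adjusted p = 0.091). The strains did not overlap for this gene. It passed in 1 alternative, with the replicate number as a block and the delta izh2 numbers crossed (adjusted p = 0.044). The small subunits QCR6, QCR7, QCR8 and QCR9 had -0.02 to 0.32. For QCR10 the delta eos1 arrays differed widely, at 2481 and 1139, and overlapped the wild-type values of 1211 and 957, with 827 and 636 in delta izh2. QCR9 gave 2029 and 1837 in wild type, 2357 and 1546 in delta eos1, and 1164 and 1466 in delta izh2, the last below both other strains.

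Neither cytochrome c gene passed in delta eos1. CYC1, the main isoform, had a log2 fold change of 0.07. CYC7, the isoform known from low oxygen and stress, gave 139 and 63.9 in wild type, 210 and 119 in delta eos1, and 44.5 and 61.4 in delta izh2. Its wild-type arrays differed from each other by more than delta eos1 differed from the wild type (log2 fold change 0.75, adjusted p = 0.36). CYC7 passed the filter on dim genes narrowly, with a mean log2 signal of 6.53 against a limit of 6.52. Without the delta eos1 arrays its mean was 6.13, so it was tested through the strain in which it was high.

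The nuclear subunits of complex IV, which surround a catalytic core encoded in the mitochondrion, had the lowest median change of the complexes in delta eos1. Their log2 fold changes in delta eos1 ran from -0.12 for COX7 to 0.47 for COX13, with a median of 0.15, which is 0.07 below that of all tested genes. For each of the 8 genes the delta eos1 arrays overlapped the wild-type arrays. COX7 gave 2454 and 1261 in wild type, 2016 and 1290 in delta eos1, and 1164 and 1339 in delta izh2. COX9 gave 2803 and 1949 in wild type, 2945 and 1712 in delta eos1, and 1760 and 1660 in delta izh2, with a log2 fold change of -0.06 in delta eos1. In both genes the first wild-type and delta eos1 arrays were high and the second low. The remaining subunits were COX4 (0.05), COX5A (0.13), COX6 (0.20), COX8 (0.37) and COX12 (0.17), and 0 passed. The 95% intervals of the 8 were wide, reaching from -0.87 to 1.26.

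Outside chromosome II, 10 ATP synthase subunits had log2 fold changes from 0.03 (ATP20, subunit g) to 0.52 (ATP14, subunit h) in delta eos1, with a median of 0.25, and 0 passed. ATP4, the stator subunit b, had 0.38 and ATP5, which joins the stator to the head, 0.09. The others were ATP7 (0.25), ATP17 (0.37) and ATP18 (0.25). The groups did not overlap for ATP4 and ATP16, and overlapped for the other 8.

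INH1 (YDL181W) encodes the small protein that blocks ATP hydrolysis by the synthase when the proton gradient collapses. Its signal was 245 and 240 in wild type, 499 and 416 in delta eos1, and 169 and 133 in delta izh2. The 3 strains were fully separated, with delta eos1 highest and delta izh2 lowest. INH1 rose 1.88-fold in delta eos1 against the wild type (log2 fold change 0.91, standard error 0.23, limma adjusted p = 0.038). This call held less well than those of the chromosome II genes. The adjusted p was 0.084 after median centring, 0.093 when chromosome II genes were left out of the fit, 0.21 without the first delta eos1 array, and 0.050 to 0.069 without either wild-type array or either delta izh2 array.

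**Figure D3:**
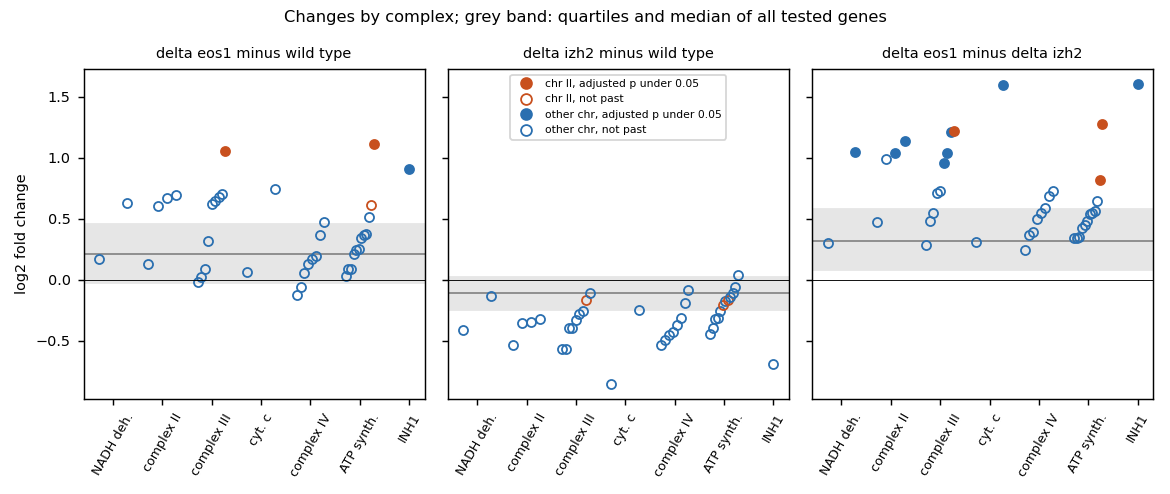
Log2 fold changes of the 38 tested genes by complex in the 3 comparisons. Filled points passed an adjusted p under 0.05, orange points are the genes of chromosome II, and the grey band spans the quartiles of all 4907 tested genes around their median. In the left panel complexes II and III reach above the band and complex IV stays within or near it, and in the middle panel nearly all points lie below 0.

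Delta izh2 was compared with the same wild-type arrays. Of the 38 genes 0 rose and 0 fell (limma), against 0% and 0.0204% of all tested genes, the single fall in the genome being that of IZH2. At an unadjusted p under 0.05, 1 of 38 was lower, INH1, and 0 were higher, against 1.98% and 0.163% of all tested genes. INH1 had a log2 fold change of -0.69 (limma adjusted p = 0.998). COX6 had -0.53, QCR9 -0.56 and SDH4 -0.53 at the same adjusted p. The one gene with a positive value was ATP14, at 0.04, with 1370 and 915 in wild type, 1970 and 1300 in delta eos1, and 1314 and 1004 in delta izh2.

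The respiratory genes nevertheless lay lower than most. Their median log2 fold change in delta izh2 was -0.32, which is 0.21 below that of all tested genes. Both delta izh2 arrays lay below both wild-type arrays for 23 of the 38, against 22.9% of all tested genes, and above for 0, against 5.2%. COX6 gave 2343 and 1921 in wild type against 1376 and 1567 in delta izh2, with 2869 and 2057 in delta eos1. Delta izh2 was lowest for this gene. After median centring 5 of the 38 genes had a positive log2 fold change, against 52.3% of all tested genes. The median was -0.40 for complex IV, -0.33 for complex III, -0.35 for complex II and -0.19 for the ATP synthase. COR1 (-0.17), ATP1 (-0.20) and ATP3 (-0.16) lay near the genome median of -0.11, and their arrays overlapped the wild type.

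Set directly against each other, the mutants differed in 11 of the 38 genes, all higher in delta eos1, and 0 were lower (limma). Over all tested genes 11.9% were higher and 0.713% lower. Of the 3 on chromosome II all were higher, against 76.7% of the tested genes there, and of the 35 elsewhere 8 were, against 6.85%. At an unadjusted p under 0.05, 20 were higher and 0 lower, against 27.7% and 1.73%. After median centring 5 of 38 were higher and 0 lower, against 6.62% and 3.91%. This comparison shares its arrays with the others and does not stand alone. INH1 was 3.04-fold higher (adjusted p = 0.0024), ATP3 2.42-fold (adjusted p = 0.0034) and COR1 2.33-fold (adjusted p = 0.0045). Outside these came SDH4 (2.20-fold, adjusted p = 0.015), NDI1 (2.06-fold, adjusted p = 0.025), SDH2 (2.06-fold, adjusted p = 0.027), QCR2 (2.05-fold, adjusted p = 0.018) and CYT1 (1.94-fold, adjusted p = 0.015). ATP1 was 1.76-fold higher (adjusted p = 0.023), and CYC7 and QCR10 were 3.03-fold and 2.32-fold higher (adjusted p = 0.035 and 0.046), CYC7 being the gene that reached the test through delta eos1. The 5 that also passed after median centring were INH1, ATP3, COR1, SDH4 and QCR2.

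Complex IV again gave 0 calls in this comparison, and COX6 came nearest with an adjusted p of 0.081 and a log2 fold change of 0.73. Of the ATP synthase 2 of 12 passed, both on chromosome II. The delta eos1 arrays lay above both delta izh2 arrays for 34 of the 38 genes, against 54.6% of all tested genes, and below both for 0, against 6.46%. The count of 11 rested on single arrays: it was 3 without the first delta eos1 array, 16 without the second, 6 without the first delta izh2 array and 0 without the second. ATP3, COR1 and INH1 were the 3 that passed without the first delta eos1 array. Without the second delta izh2 array their adjusted p were 0.054, 0.058 and 0.053.

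Other nuclear genes of respiration were listed by function, and their counts stand against 6.4% of all tested genes that rose and 0.713% that fell. The tested genes of the lists of other subunits, heme synthesis and other electron donors all lie outside chromosome II, where 2.35% rose. Besides the subunits above, 6 subunits, isoforms and regulators of the complexes were tested, and 1 rose in delta eos1. It was STF1, a paralogue of INH1, with signals of 478 and 333 in wild type, 1385 and 1031 in delta eos1, and 335 and 263 in delta izh2. It rose 2.99-fold (limma adjusted p = 0.0068) and passed in each of the other settings that tested it. STF2, another factor linked to the inhibitor, had a log2 fold change of 0.72 with wild-type arrays at 4183 and 1533. COX5B, the low-oxygen isoform of COX5A, had -0.16. Of the 46 tested assembly and expression factors 6 rose and 0 fell. Outside chromosome II 2 of 42 of them rose, against 2.35% of all tested genes there. On chromosome II were SCO1 (2.69-fold, adjusted p = 0.0054) and SCO2 (2.48-fold, adjusted p = 0.028), which serve copper delivery to complex IV, CBP6, a factor for cytochrome b (2.36-fold, adjusted p = 0.018), and TCM62, a complex II chaperone (2.19-fold, adjusted p = 0.026). Elsewhere were NCA3, linked to expression of mitochondrial ATP synthase subunits (6.87-fold, adjusted p = 0.0035), and SDH6, a complex II assembly factor (2.34-fold, adjusted p = 0.048).

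For NCA3 the signal was 106 and 115 in wild type, 988 and 584 in delta eos1, and 132 and 68.7 in delta izh2, and the call held in each other setting that tested it. In coenzyme Q synthesis 2 of 11 genes rose, COQ1 on chromosome II (2.40-fold, adjusted p = 0.015) and the monooxygenase gene COQ6 (1.97-fold, adjusted p = 0.041). Of 8 genes listed as other electron donors 1 rose, CYB2, the lactate dehydrogenase that feeds cytochrome c (2.71-fold, limma adjusted p = 0.022). That list was a broad one and also held URA1, CBR1 and AIM17, whose link to the chain was not examined. CYB2 passed the filter on dim genes through delta eos1, with a mean log2 signal of 6.20 on the other 4 arrays. Of 10 tested regulators 1 rose, ADR1, an activator of glucose-repressed genes. It gave 48.7 and 136 in wild type against 299 and 380 in delta eos1 (4.14-fold, adjusted p = 0.016, and 0.052 after median centring). HAP4, the activating subunit of the complex that drives many respiratory genes, gave 963 and 701 in wild type and 1190 and 464 in delta eos1, with a log2 fold change of -0.15. HAP3, on chromosome II, had 0.75 (adjusted p = 0.22).

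Heme synthesis had 0 calls among 10 genes, with CYT2 at 0.46 and HEM13 at -0.46 on the log2 scale. Carriers and porins had 0 among 7. They include PET9, the main ADP/ATP carrier, and AAC3, its low-oxygen paralogue, which both lie on chromosome II and had log2 fold changes of 0.35 (adjusted p = 0.28) and -0.34 (adjusted p = 0.40). In all, 8 listed genes of chromosome II beside the subunits were tested, and 5 of them rose, against 58.8% of all tested genes there. Without the first delta eos1 array 4 of these 11 calls on listed genes held, those of SCO1, STF1, ADR1 and NCA3. Without the second wild-type array 7 held, and without either delta izh2 array 6 held. After median centring 8 of the 11 held, all but those of TCM62, ADR1 and SDH6. After quantile normalization 7 held, with CYB2 lost as well. With chromosome II genes left out of the fit, 3 of the 6 calls elsewhere held, and those of SDH6, COQ6 and CYB2 were lost. SDH6 lost its call in most of the settings tried. In delta izh2 0 genes of these lists passed. STF2 had -1.39, PIC2 -1.44, AIM17 -1.19, COX5B -1.08 and MIG1 0.80 there on the log2 scale, at an adjusted p of 0.998. The mitochondrially encoded subunits were not analysed here.

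**Figure D4:**
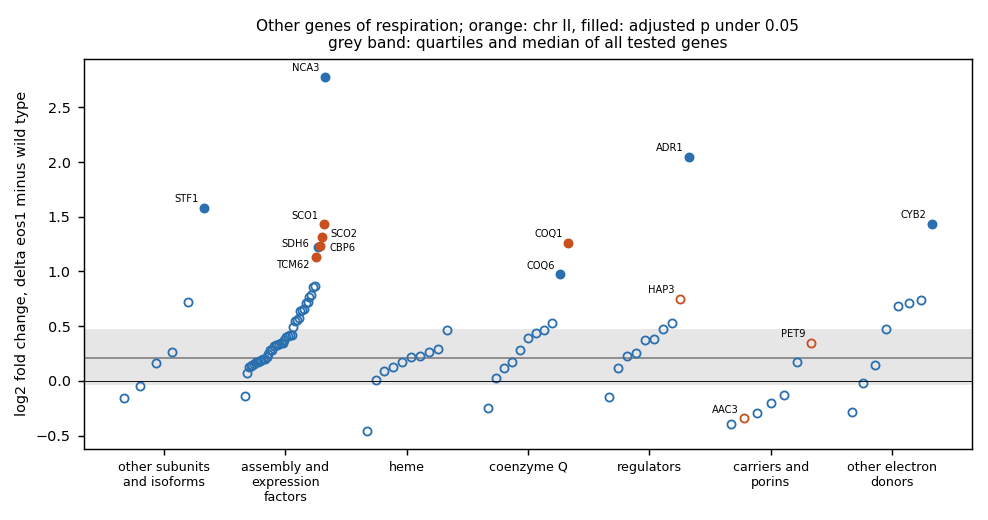
Log2 fold changes in delta eos1 against the wild type of the tested genes in 7 other lists of respiration. Orange marks chromosome II, filled points passed an adjusted p under 0.05, and the grey band spans the quartiles of all tested genes. NCA3, ADR1, STF1 and CYB2 stand out among genes of other chromosomes, but CYB2 passed the filter on dim genes only through delta eos1. PET9 and AAC3 lie within or below the band although they are on chromosome II.

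The respiratory genes are short, with a median annotated length of 454.5 bases against 1272 for all tested genes, and length went with the difference between arrays of 1 strain. In the wild type, the first array exceeded the second by a median of 0.41 on the log2 scale for the 25 genes under 600 bases and by -0.15 for the 13 longer ones. Across the 38 genes, which share their arrays and are not independent, Spearman's rho between length and this difference was -0.81 in the wild type, -0.51 in delta eos1 and 0.30 in delta izh2. Over all tested genes it was -0.41, -0.35 and 0.32. COX7, COX12, COX13 and ATP17, all under 600 bases, were among the genes with the widest gap between the wild-type arrays. COX13, for example, gave 2588 and 1188.

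Changes between strains were split by length as well. In delta eos1 the median log2 fold change was 0.20 for the 25 short genes and 0.63 for the 10 longer ones outside chromosome II, against 0.09 and 0.20 for all tested genes of those length classes outside chromosome II. In delta izh2 it was -0.39 for the short genes and -0.20 for all 13 longer ones, against -0.25 and -0.09 for all tested genes in the 2 classes. Short genes at large thus also lay below the genome median in delta izh2. Of the genes with a higher position in delta eos1, SDH1, SDH2, CYT1, QCR2, RIP1 and NDI1 are among the longer ones, while INH1, at 258 bases, SDH4 and QCR10 are short. The part of gene length in these differences was not tested.

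**Figure D5:**
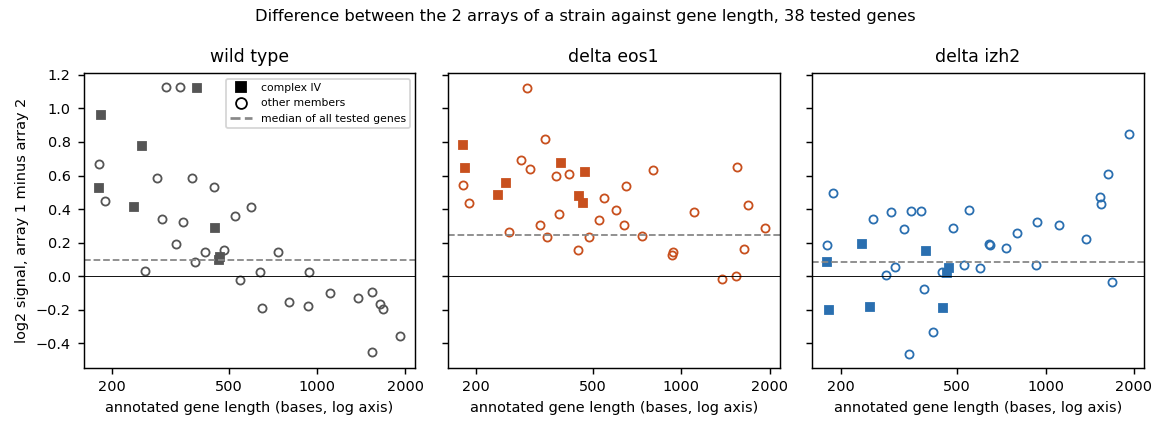
Difference in log2 signal between the first and second array of each strain against annotated gene length on a log axis, for the 38 tested genes. Squares are complex IV, and the dashed line is the median of all tested genes. In the wild type the short genes lie up to about 1.1 above 0 and the longest below it, and in delta izh2 the slope runs the other way.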

How the data were processed

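The deposited values are signal intensities of 10928 probe sets on each Affymetrix Yeast Genome 2.0 array. GCOS is named in the submitters' processing notes, and per the labels' design text statistics were done in GeneSpring 7.3.1. How arrays were scaled is not stated in these sources. Names came from the platform annotation, updated with the R64 gene table, and 5498 probe sets name 1 yeast gene. For 47 genes with several probe sets the brightest was kept. Signals were floored at 1 and taken to log2 without further scaling. Genes passed the filter if their mean log2 signal exceeded the 95th percentile of the 5430 other probe sets, control probe sets included (6.52). limma 3.58.1 in R 4.3.3 fitted all 6 arrays (lmFit, contrasts.fit, eBayes with trend, degrees of freedom 3 residual and 7.41 prior). Tests are two-sided and adjusted over all tested genes by Benjamini-Hochberg, with 0.05 as the threshold. The fit was tested on simulated data. Annotated lengths are gene spans without UTRs.

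The members and lists were chosen with earlier results of these data known. Named were the chromosome II members, members called in any comparison, the 4 with the smallest p per comparison and direction, and called genes of each list. Same-numbered arrays were checked for pairing. Their differences by number correlated at 0.48 between wild type and delta eos1, but at -0.34 and 0.09 where delta izh2 was involved. The main fit used no block, since the labels give no pairing. Alternatives tried were other scalings, floors, filters, moderation, probe set averaging, a replicate block and leaving out arrays.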

Additional observations from a re-analysis of the deposited data

How the results depend on the processing

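Calls in delta eos1 against the wild type numbered 3 in the main setting. They were 0 without the first delta eos1 array and also 0 when chromosome II genes were left out of the fit, which removes COR1 and ATP3. Leaving out single arrays gave 0 to 4. In the comparison of the mutants, 11 calls became 5 after median centring, 6 after centring on genes outside chromosome II, 6 after quantile normalization, 6 without chromosome II genes and 5 under the stricter filter, which kept 1071 genes and 23 of the members. Leaving out single arrays gave 0 to 16. Delta izh2 against the wild type had 0 calls under every alternative tried. The log2 fold change of COR1 in delta eos1 ran from 0.99 to 1.12 and that of ATP3 from 1.04 to 1.18 on leaving out single arrays. Both were lower after median centring, at 0.82 for COR1 and 0.88 for ATP3. ATP1 passed at 0.61 under the stricter filter (adjusted p = 0.026). On leaving out single arrays, the difference from the partners ran from 0.34 to 1.01 for COR1, from 0.70 to 1.02 for ATP3 and from 0.10 to 0.62 for ATP1. Small changes turned over without the first wild-type array for COX7 (0.36), COX9 (0.20) and QCR9 (0.06) in delta eos1, and without the second delta eos1 array (0.20, 0.33 and 0.29), and the lowest values on leaving out single arrays were -0.61, -0.45 and -0.32. ATP14 in delta izh2 turned to -0.26 without the second wild-type array and to -0.16 without the first delta izh2 array. The causes were not tested.

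By the labels, same-numbered arrays share only a number. The difference between first and second array correlated across genes at 0.48 between wild type and delta eos1. The value was -0.34 between wild type and delta izh2 and 0.09 between the mutants. The arrays of wild type and delta eos1 thus differed partly in the same way by number, and those of delta izh2 did not follow. With the replicate number as a block the counts were 3, 0 and 13 in the comparisons of eos1 with wild type, izh2 with wild type and eos1 with izh2. With the izh2 numbers crossed, added after seeing the data, they were 5, 0 and 14, where ATP1 at 0.61 (adjusted p = 0.048) and CYT1 at 0.68 (adjusted p = 0.044) passed. With 2 arrays a strain, precision is limited by their number.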
